A study of Homo sapiens with 4 samples.

Results

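The genes described here are 37 genes of sterol and fatty acid synthesis, listed by symbol: the sterol-sensing regulators, the enzymes that carry acetyl-CoA through mevalonate and squalene to cholesterol, and the enzymes that build, elongate, desaturate and activate fatty acids. They were matched to probe sets annotated to exactly 1 of the symbols. Of the 37 genes, 33 were measured in this way, on 77 probe sets, out of 19775 genes on the array. CYP51A1 and FADS1 were represented only by probe sets annotated also to another gene and are given no value, and FDFT1 and ACSL3 were not analysed here. Each gene is represented by its probe set with the highest mean log2 intensity.

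The expression of these genes was measured in total RNA on 4 GeneChip Human Genome U133 Plus 2.0 arrays, 2 of 320-IWR cells and 2 of COLO-320DM cells. COLO-320DM is a human colorectal cancer cell line that responds to tankyrase inhibitors. 320-IWR is its resistant subline, obtained by keeping COLO-320DM cells in IWR-1, an inhibitor of the tankyrases, which stabilizes Axin and lowers β-catenin. Both lines were grown in dishes to near confluence before the RNA was taken. Whether IWR-1 was in the medium of the 320-IWR dishes at that point is not given in the sources used here. Nor is it given whether both arrays of a line came from different dishes, so a p-value reflects the distance between arrays and may be a technical one. 320-IWR is a single selected subline, and a difference between the lines cannot be told apart from other changes acquired during its selection.

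As background, sterol and fatty acid synthesis genes are controlled together by the sterol regulatory element-binding proteins (SREBPs), membrane-bound transcription factors encoded by SREBF1 and SREBF2. When sterols are scarce, the escort protein SCAP carries the SREBPs from the endoplasmic reticulum to the Golgi, where proteases release their active part. When sterols are plentiful, INSIG1 and INSIG2 hold SCAP back in the endoplasmic reticulum. INSIG1 is itself an SREBP target, as are most enzymes of the mevalonate pathway. The active SREBPs bind sterol regulatory elements and often act beside NF-Y, which binds the CCAAT box.

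Promoter sequences are shown for the regulator SREBF2, for 4 genes that differed together between the replicates of both lines (INSIG1, HMGCS1, IDI1 and FDPS), and for 3 of the genes with the largest differences between the lines (ACSL6, ACSS2 and DHCR7). Each is the 250 bases before an annotated start, taken from RefSeq on GRCh38.p14 and written along the strand of the gene. Capitals mark the sterol regulatory element core (TCACNCCAC), the CCAAT box (CCAAT) and the E-box (CACGTG), on either strand, so that a CCAAT box on the other strand reads ATTGG. HMGCS1, IDI1, ACSL6, ACSS2 and DHCR7 have several annotated starts, and the window shown is one that held a motif. All windows shown hold a motif. SREBF1, FADS2 and AACS were among the genes with no motif in any window, and their sequences are not shown.
SREBF2, chr22:41832855-41833104, plus strand: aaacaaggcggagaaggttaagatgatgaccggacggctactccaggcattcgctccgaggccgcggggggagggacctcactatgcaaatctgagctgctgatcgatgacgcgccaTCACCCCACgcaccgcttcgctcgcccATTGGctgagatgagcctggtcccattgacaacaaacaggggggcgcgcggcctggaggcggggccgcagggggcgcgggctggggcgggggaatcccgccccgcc
INSIG1, chr7:155297628-155297877, plus strand: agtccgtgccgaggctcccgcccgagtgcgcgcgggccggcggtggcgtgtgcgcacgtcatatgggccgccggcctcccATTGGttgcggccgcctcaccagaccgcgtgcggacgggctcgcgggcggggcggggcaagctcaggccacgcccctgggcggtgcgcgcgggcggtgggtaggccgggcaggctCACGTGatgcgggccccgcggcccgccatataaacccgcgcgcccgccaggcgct
HMGCS1, chr5:43313413-43313662, minus strand: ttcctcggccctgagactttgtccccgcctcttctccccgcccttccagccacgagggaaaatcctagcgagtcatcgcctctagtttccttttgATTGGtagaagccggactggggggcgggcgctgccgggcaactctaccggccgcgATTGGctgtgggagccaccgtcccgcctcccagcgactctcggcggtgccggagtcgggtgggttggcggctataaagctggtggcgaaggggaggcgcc
IDI1, chr10:1048887-1049136, minus strand: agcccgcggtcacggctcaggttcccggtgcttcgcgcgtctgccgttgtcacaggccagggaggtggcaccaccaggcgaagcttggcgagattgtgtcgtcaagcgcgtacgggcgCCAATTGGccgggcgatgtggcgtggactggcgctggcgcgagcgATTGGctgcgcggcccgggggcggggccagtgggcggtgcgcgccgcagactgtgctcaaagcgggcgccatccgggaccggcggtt
FDPS, chr1:155308616-155308865, plus strand: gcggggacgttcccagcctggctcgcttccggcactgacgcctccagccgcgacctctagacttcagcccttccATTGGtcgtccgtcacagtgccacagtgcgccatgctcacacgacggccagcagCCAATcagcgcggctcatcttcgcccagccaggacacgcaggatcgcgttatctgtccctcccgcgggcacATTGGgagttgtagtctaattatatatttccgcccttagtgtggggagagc
ACSL6, chr5:131999694-131999943, minus strand: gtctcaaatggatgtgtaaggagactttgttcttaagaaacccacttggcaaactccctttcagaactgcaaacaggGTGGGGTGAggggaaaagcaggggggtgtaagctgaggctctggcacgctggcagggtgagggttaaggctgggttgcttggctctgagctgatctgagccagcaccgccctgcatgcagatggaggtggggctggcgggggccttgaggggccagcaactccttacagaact
ACSS2, chr20:34874739-34874988, plus strand: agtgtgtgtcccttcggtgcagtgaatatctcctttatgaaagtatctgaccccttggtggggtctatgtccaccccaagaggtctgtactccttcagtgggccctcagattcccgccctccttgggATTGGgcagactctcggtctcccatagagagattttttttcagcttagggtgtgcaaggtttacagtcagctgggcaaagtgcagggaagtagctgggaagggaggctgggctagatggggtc
DHCR7, chr11:71448394-71448643, minus strand: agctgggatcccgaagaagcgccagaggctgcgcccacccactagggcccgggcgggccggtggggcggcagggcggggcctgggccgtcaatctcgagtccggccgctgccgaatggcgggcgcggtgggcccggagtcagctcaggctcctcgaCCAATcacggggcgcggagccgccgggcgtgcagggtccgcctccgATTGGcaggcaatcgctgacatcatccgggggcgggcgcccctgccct

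A promoter window was found for 30 of the 33 measured genes. The CCAAT box was the motif that most of them held: 21 of the 30 genes (70%) had it in the 250 bases before a start, against 37% of 27305 genes with a window. The sterol regulatory element core was found in 2 of the 30 genes (6.67%), SREBF2 and ACSL6, against 1.09% of all genes with a window. The ACSL6 match lay in 1 of that gene's 7 windows. The E-box was found in SCAP, INSIG1 and SC5D (10%), against 7.73% of all genes with a window. No motif holds a whole copy of another, and in the IDI1 window a CCAAT box of each strand overlap in the first run of capitals. Genes with several starts have more chances of a match, and a match is a description of the letters, not evidence of binding. Nor does the lack of a match show that a site is absent, since only these exact letters in 250 bases were searched.

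Over the whole arrays, the medians lay between 41.1 and 41.9 and the upper quartiles between 162 and 176, with the replicate 1 array below the replicate 2 array in the upper quartile of both lines (162 and 174 in 320-IWR, 167 and 176 in COLO-320DM). Pearson's r across probe sets (a description, since probe sets are no replicates) was 0.991 between the 320-IWR arrays and 0.990 between the COLO-320DM arrays. Among 10 colon epithelium markers, KRT20 rose in 320-IWR (log2 fold change 1.78) and KRT8 (-2.26) and KRT18 (-1.67) fell. Their limma adjusted p-values were 0.0155 for KRT8, 0.0322 for KRT18 and 0.0412 for KRT20, so none passed at an adjusted p under 0.01. The KRT8 and KRT18 probe sets are of a type that the array's maker marks as possibly reading other transcripts. Without such probe sets and those that read several transcripts, KRT8 and KRT18 had no value. With an offset of 16 before log2, the KRT18 and KRT20 calls were lost (limma adjusted p = 0.0646 and 0.095). KRT20 was also lost with a trended robust prior (limma adjusted p = 0.053). All 3 calls were lost with 1 array left out, which was fixed for a 320-IWR array, where no probe set passed. The log2 fold changes then stayed between 1.62 and 1.94 for KRT20, -2.37 and -2.15 for KRT8, and -1.78 and -1.55 for KRT18. The 10 markers differed widely in level, from 11.1 to 3403. CDH1 stood near the low end in both lines, at 18.3 and 18.8 on the 320-IWR arrays, against 16.2 and 18.3 on the COLO-320DM arrays. CDX2 was the brightest and made up most of the sums below, with 2723 and 2790 in 320-IWR, against 3403 and 3263 in COLO-320DM (log2 fold change -0.27, not called). The summed intensity of the 10 epithelial markers was 3653 to 3759 in 320-IWR and 5375 to 5547 in COLO-320DM. The 4 neuroendocrine markers summed to 150.5 to 166.6 in 320-IWR, against 179.1 to 182.1 in COLO-320DM, without a call and with differing signs (log2 fold changes of -1.12 for ENO2, -0.03 for NCAM1, 0.16 for SYP and 0.32 for CHGA). The leukocyte, fibroblast and endothelium markers gave no call, with sums of 239 to 291, 285 to 296 and 111 to 119 in 320-IWR and of 201 to 244, 285 to 297 and 106 to 111 in COLO-320DM. The part of these differences in the results was not tested.

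The lines were compared to ask whether sterol and fatty acid synthesis genes were expressed differently in the resistant subline. None of the 33 measured genes passed the test. With limma, 0 rose and 0 fell in 320-IWR at a Benjamini-Hochberg adjusted p under 0.05 over all probe sets and at least a 2-fold difference, while 0.192% of all genes rose and 0.399% fell. At an unadjusted p under 0.05, 5 of the 33 (15.2%) were past the threshold, 3 higher and 2 lower, against 12.3% of all genes (5.91% higher and 6.36% lower). A 2-fold difference without a test was found in 1 gene higher in 320-IWR, ACSL6, and in 1 lower, ACSS2 (0.87% and 1.93% of all genes). In the arrays of a whole culture, fewer cells that express a gene and less RNA per cell cannot be told apart.

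The differences between the lines were mostly small. The median log2 fold change of the 33 genes was -0.11, with 12 above 0 and 21 below, against 0.02 over all genes. Its sign depended on single arrays: it was 0.07 without COLO-320DM replicate 1 and 0.15 without 320-IWR replicate 2. Leaving out 1 array leaves the lines unequal in replicate number, so these values also hold the difference between replicates described below. The log2 fold changes ran from -1.46 (ACSS2) to 1.69 (ACSL6). The arrays of the lines did not overlap for 11 genes, 5 higher in 320-IWR (21% of all genes) and 6 lower (17.5% of all genes). With 2 arrays against 2, an exact two-sided permutation test cannot give a p below 0.333. For 18 of the 33 genes, the 95% interval of the fold change lay within 2-fold either way, against 87.6% of all genes, and for the other 15 genes it reached past 2-fold.

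**Figure D1:**
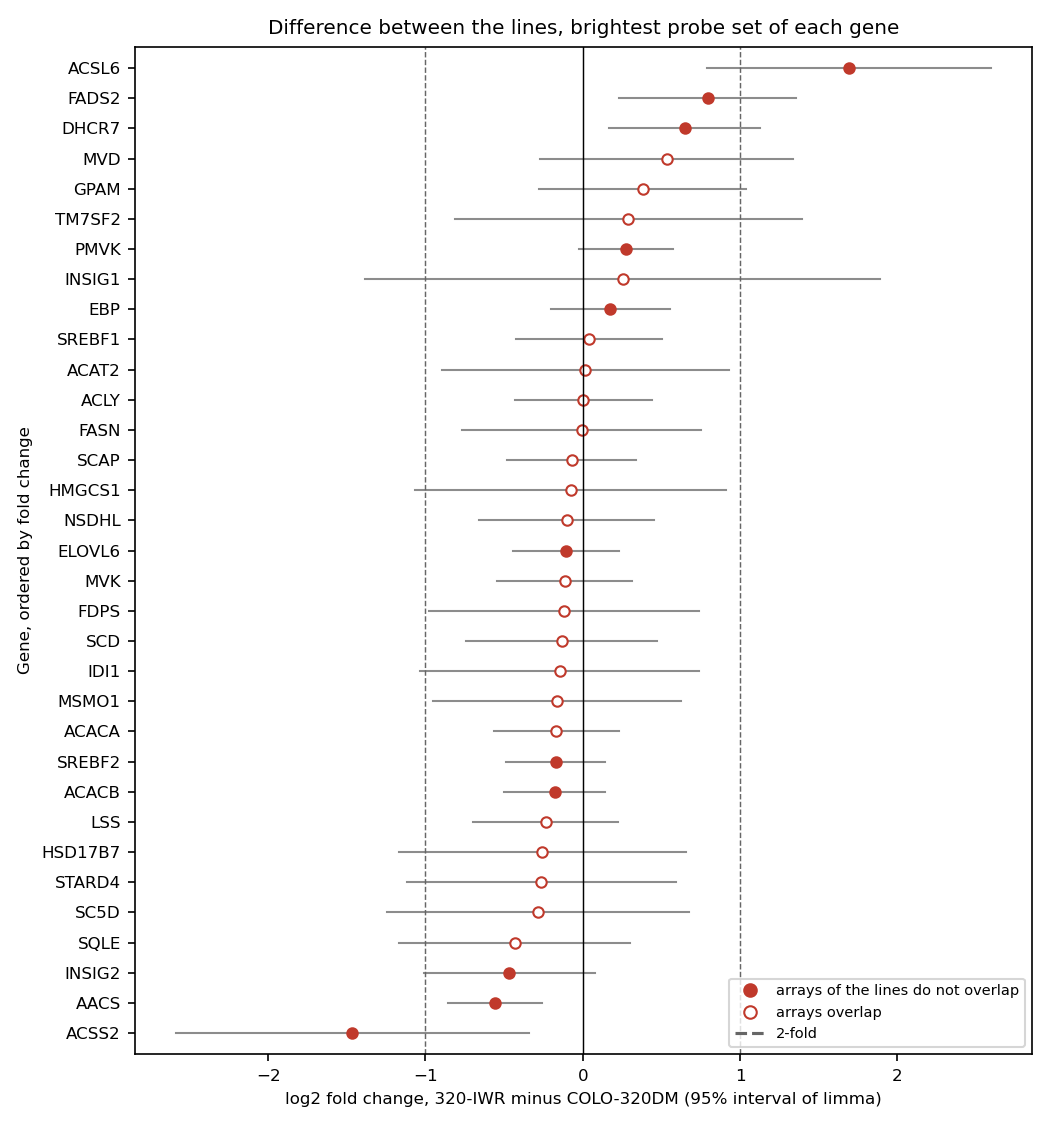
The log2 fold change of 320-IWR over COLO-320DM (horizontal axis) is drawn for the brightest probe set of each of the 33 genes, ordered by that value, with the 95% interval of limma as a line. Filled points mark the 11 genes without overlap between the arrays of the lines, and the dashed lines mark 2-fold. ACSL6 lies at 1.69 and ACSS2 at -1.46, and the interval of INSIG1 is the widest of the 33, from -1.38 to 1.89.

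Among the regulators, the levels of the SREBP genes themselves were close between the lines on their brightest probe sets. SREBF1 had intensities of 207 and 177 in 320-IWR, against 211 and 165 in COLO-320DM (replicate 1 and replicate 2, as in all pairs below). SREBF2 had 231 and 223 in 320-IWR, against 266 and 246 in COLO-320DM. On these probe sets the SREBF1 arrays overlapped between the lines. For SREBF2, both 320-IWR arrays lay below both COLO-320DM arrays, by 0.17 on the log2 scale (SE 0.12, limma adjusted p = 0.818). The dimmer SREBF1 probe set did not overlap, with 94.7 and 75.4 in 320-IWR, against 59.6 and 68.9 in COLO-320DM (log2 fold change 0.40, limma adjusted p = 0.579). SCAP, the escort protein, had 412 and 478 in 320-IWR and 425 and 510 in COLO-320DM, with a log2 fold change of -0.07. INSIG2, which anchors SCAP in the endoplasmic reticulum, had 354 and 259 in 320-IWR, against 464 and 377 in COLO-320DM, with no overlap and a log2 fold change of -0.47 (95% interval -1.01 to 0.08, limma adjusted p = 0.607). The other anchor, INSIG1, had 1575 and 591 in 320-IWR, against 1264 and 519 in COLO-320DM. For INSIG1 the 2 arrays of a line differed by more than the lines did, and the log2 fold change of 0.25 had a 95% interval of -1.38 to 1.89.

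The mevalonate pathway turns acetyl-CoA into the isoprenoid units of sterols, and its 7 measured genes had log2 fold changes of -0.15 to 0.53. HMGCS1, the synthase that makes HMG-CoA, had 1053 and 545 in 320-IWR, against 983 and 650 in COLO-320DM, and its arrays overlapped. PMVK, phosphomevalonate kinase, had 718 and 700 in 320-IWR, against 590 and 580 in COLO-320DM. It was the only gene of the pathway whose arrays did not overlap, with a log2 fold change of 0.28 (SE 0.11, limma adjusted p = 0.566). The other genes of the pathway were ACAT2, MVK, MVD, IDI1 and FDPS, of which MVD, mevalonate diphosphate decarboxylase, had the highest fold change at 0.53 on the log2 scale (limma adjusted p = 0.742) and arrays that overlapped.

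In the later steps from squalene to cholesterol, 9 genes had log2 fold changes of -0.43 to 0.65, with 3 above 0 and 6 below. SQLE, squalene epoxidase, which places the oxygen on squalene, had 2414 and 1485 in 320-IWR, against 2914 and 2244 in COLO-320DM. The replicate 1 array of 320-IWR lay above the replicate 2 array of COLO-320DM, so the lines overlapped (log2 fold change -0.43, limma adjusted p = 0.790). DHCR7, which reduces 7-dehydrocholesterol to cholesterol, was the gene of these steps furthest from 0. It had 1207 and 913 in 320-IWR, against 627 and 715 in COLO-320DM, which did not overlap. Its log2 fold change was 0.65 (SE 0.18, 95% interval 0.17 to 1.13), with a limma p of 0.0180 and an adjusted p of 0.341. EBP, the sterol isomerase, had 2805 and 2317 in 320-IWR, against 2235 and 2282 in COLO-320DM, a gap that was narrow beside the distance between the 320-IWR arrays (log2 fold change 0.17, limma adjusted p = 0.870). LSS, TM7SF2, MSMO1, NSDHL, HSD17B7 and SC5D had overlapping arrays, with log2 fold changes of -0.29 to 0.29, and so did STARD4, a carrier of cholesterol between membranes, at -0.26.

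The enzymes that supply activated acetyl and acetoacetyl groups held both genes of the set that were lower in 320-IWR at an unadjusted p under 0.05. ACSS2, the cytosolic enzyme that makes acetyl-CoA from acetate, had 90.1 and 62.5 in 320-IWR, against 310 and 138 in COLO-320DM. Both 320-IWR arrays lay below both COLO-320DM arrays, but the COLO-320DM arrays stood 2.25-fold apart. The means of log2 values were 2.76-fold lower in 320-IWR (log2 fold change -1.46, SE 0.43, 95% interval -2.58 to -0.34), with a limma p of 0.0205 and an adjusted p of 0.357. The difference was -0.88 on the log2 scale without COLO-320DM replicate 1 and -2.05 without COLO-320DM replicate 2, on the gene's only probe set. AACS, acetoacetyl-CoA synthetase, had 453 and 442 in 320-IWR, against 661 and 660 in COLO-320DM. Its replicates lay close together in both lines, and its log2 fold change was -0.56 (SE 0.11, 95% interval -0.86 to -0.26), with a limma p of 0.00505 and an adjusted p of 0.201. ACLY, which makes cytosolic acetyl-CoA from citrate, had 4411 and 3562 in 320-IWR, against 4270 and 3662 in COLO-320DM, and the lines overlapped.

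The enzymes that build and modify fatty acids were close between the lines, except FADS2. ACACA, acetyl-CoA carboxylase, had 851 and 720 in 320-IWR, against 943 and 821 in COLO-320DM, with a log2 fold change of -0.17 and overlapping arrays. ACACB, the carboxylase tied to mitochondria, had 145 and 132 in 320-IWR, against 160 and 154 in COLO-320DM, without overlap (log2 fold change -0.18, limma adjusted p = 0.814). FASN, fatty acid synthase, had 329 and 483 in 320-IWR, against 323 and 496 in COLO-320DM. The FASN arrays of the lines overlapped, and the log2 fold change was -0.01 (95% interval of the fold change 0.588 to 1.68). SCD, the desaturase that makes monounsaturated fatty acids, had 3482 and 2510 in 320-IWR, against 3742 and 2810 in COLO-320DM, with a log2 fold change of -0.13. ELOVL6, an elongase, had 921 and 811 in 320-IWR, against 935 and 926 in COLO-320DM, lower on both arrays by a narrow margin (log2 fold change -0.11). FADS2, the desaturase that starts the synthesis of long polyunsaturated fatty acids, had 667 and 467 in 320-IWR, against 350 and 297 in COLO-320DM. These did not overlap, and the difference was 1.73-fold (log2 fold change 0.79, SE 0.22, 95% interval 0.23 to 1.35), with a limma p of 0.0154 and an adjusted p of 0.322.

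ACSL6, a synthetase that joins long fatty acids to coenzyme A, had the highest fold change of the 33 genes. It had 60.0 and 121 in 320-IWR, against 26.1 and 26.7 in COLO-320DM. The COLO-320DM arrays lay close together, while the 320-IWR arrays stood about as far apart as the lower of them stood from COLO-320DM. The difference was 3.23-fold (log2 fold change 1.69, SE 0.35, 95% interval 0.79 to 2.60), with a limma p of 0.00516 and an adjusted p of 0.202, and it was 1.18 on the log2 scale without 320-IWR replicate 2. The COLO-320DM values lay below the array median of 41.1 to 41.9, and without detection calls their distance above background is unknown. GPAM, which adds the first acyl group to glycerol phosphate, had 336 and 469 in 320-IWR, against 256 and 362 in COLO-320DM, with a log2 fold change of 0.38 and overlapping arrays.

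**Figure D2:**
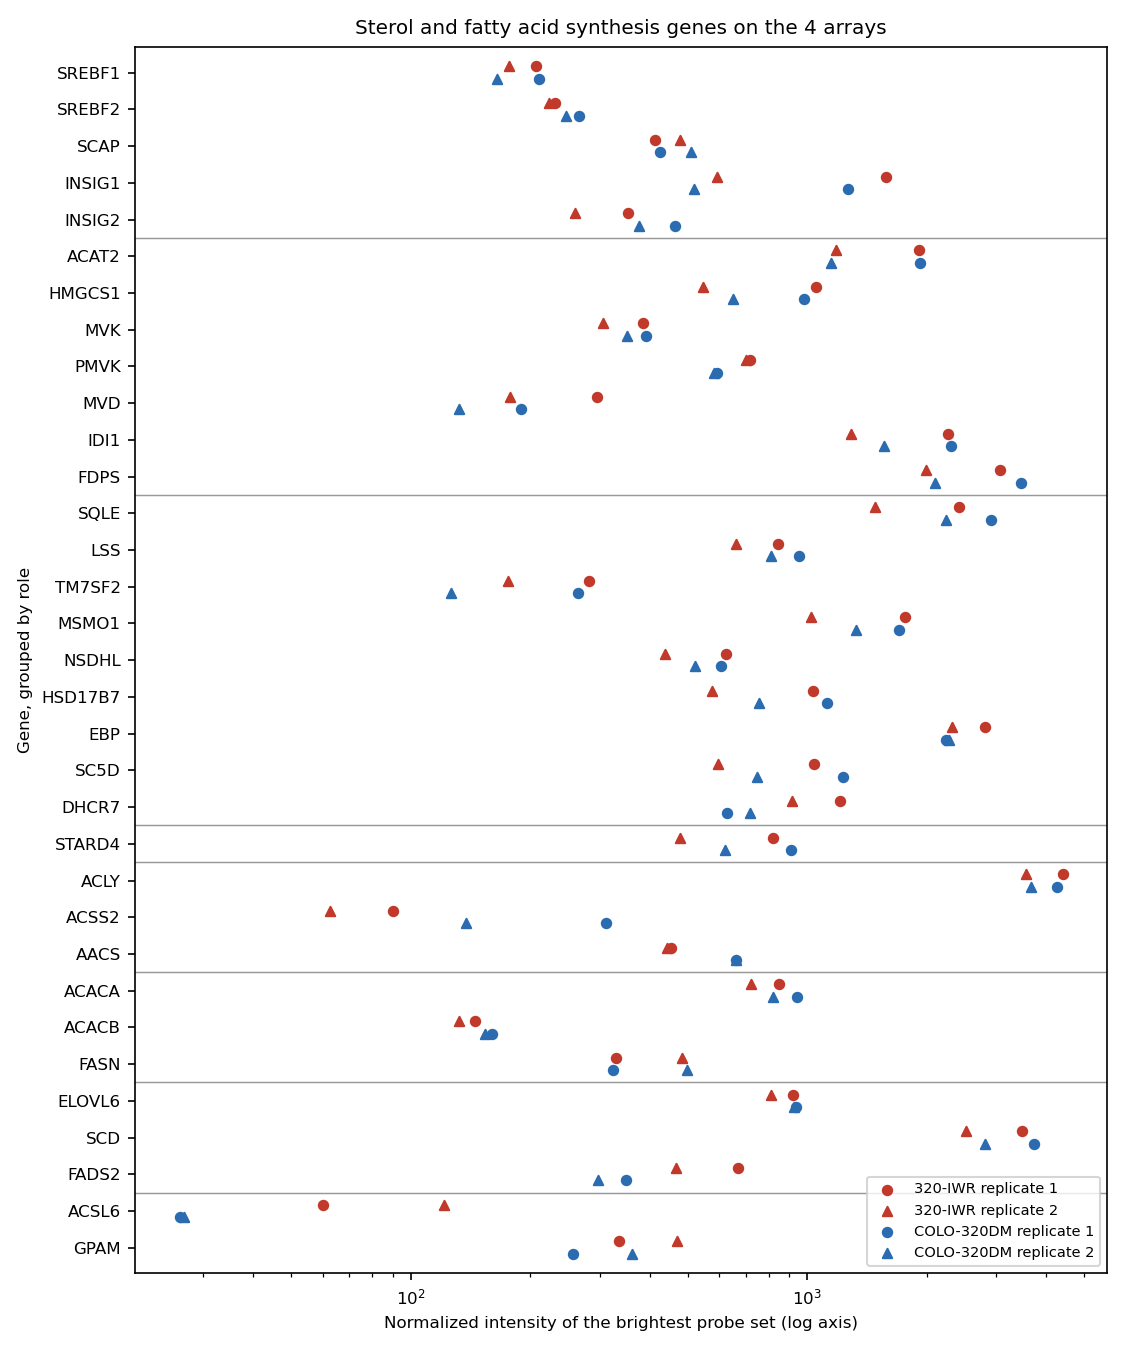
Normalized intensity (log axis) of the 33 genes on each array, with genes grouped by role from the regulators at the top to acyl-CoA activation at the bottom. Red marks stand for 320-IWR and blue for COLO-320DM, circles for replicate 1 and triangles for replicate 2. Circles lie right of triangles in both lines for 27 of the genes, and FASN and GPAM show the reverse.

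The pattern that most of these genes shared was a difference between the replicates, in the same direction in both lines. In 27 of the 33 genes the replicate 1 array was above the replicate 2 array in 320-IWR and also in COLO-320DM, against 39.4% of all genes. The difference was at least 1.25-fold in both lines for 14 of the 33 genes, against 6.6% of all genes. The 14 were INSIG1, ACAT2, HMGCS1, MVD, IDI1, FDPS, SQLE, TM7SF2, MSMO1, HSD17B7, SC5D, STARD4, ACSS2 and SCD. The median of replicate 1 minus replicate 2 was 0.45 on the log2 scale in 320-IWR and 0.24 in COLO-320DM, while over all genes it was 0.03 in 320-IWR and 0.01 in COLO-320DM. The labels do not say whether a replicate number marks a shared culture, day or hybridization in both lines, so the numbers only name the arrays. These values are given as a description, with no test, and comparisons between replicates were not planned in advance.

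**Figure D3:**
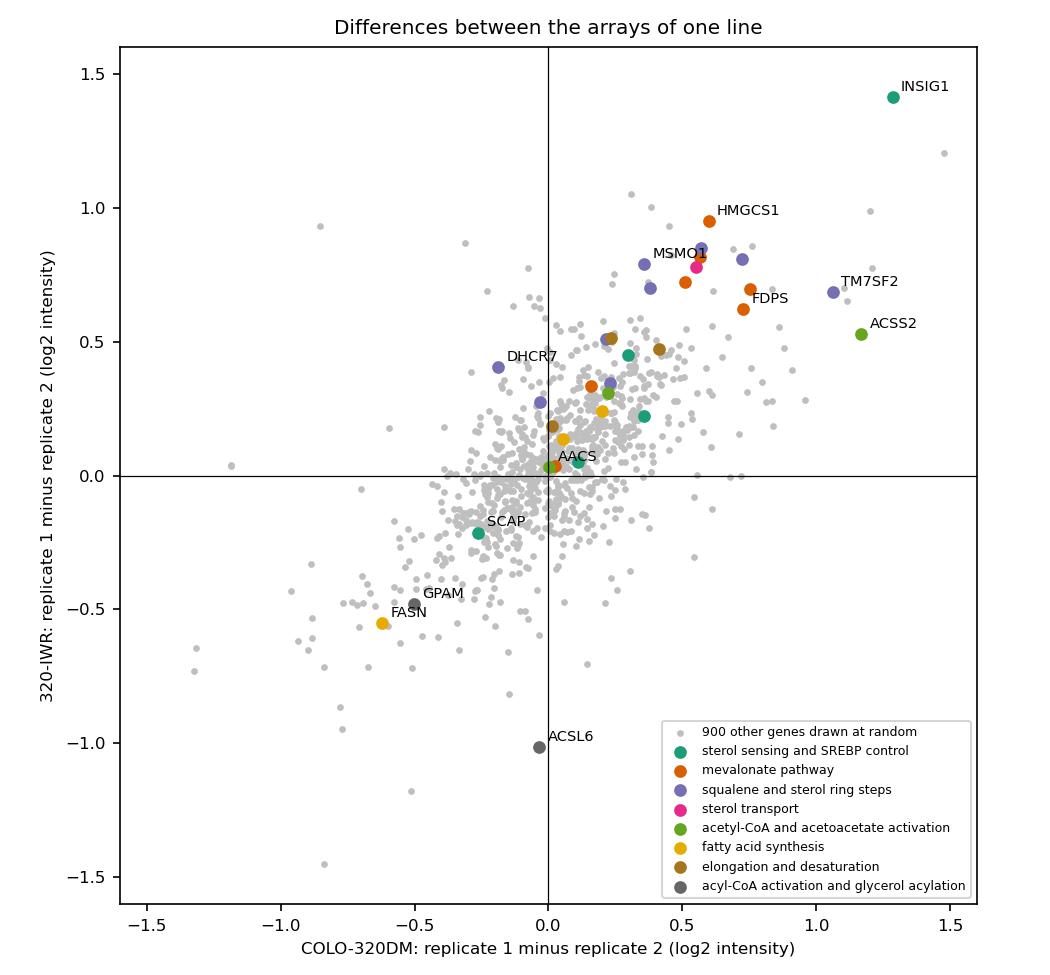
Replicate 1 minus replicate 2 in log2 intensity is plotted for COLO-320DM (horizontal axis) and 320-IWR (vertical axis), with coloured points for the 33 genes by role and grey points for 900 other genes drawn at random (3 of them lie outside the axes). INSIG1 lies at the upper right, at 1.41 in 320-IWR and 1.29 in COLO-320DM, with the mevalonate pathway genes between it and the centre, while FASN and GPAM lie at the lower left.

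INSIG1 had the largest of these differences among the 33 genes in each line, with replicate 1 at 2.66-fold of replicate 2 in 320-IWR and at 2.44-fold in COLO-320DM. HMGCS1 stood at 1.93-fold in 320-IWR and 1.51-fold in COLO-320DM, and IDI1, the isomerase of the isoprenoid unit, at 1.76-fold in 320-IWR and 1.48-fold in COLO-320DM. FDPS, farnesyl diphosphate synthase, had 3071 and 1998 in 320-IWR, against 3464 and 2094 in COLO-320DM, and both replicate 1 arrays lay above both replicate 2 arrays. The same order of the 4 arrays by number held for ACAT2, the cytosolic thiolase at the start of the pathway, with 1914 and 1181 in 320-IWR, against 1928 and 1145 in COLO-320DM. TM7SF2, a sterol reductase, had 282 and 176 in 320-IWR, against 263 and 126 in COLO-320DM.

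By role, all 7 mevalonate pathway genes had the higher value on replicate 1 in both lines, with medians of 0.70 on the log2 scale in 320-IWR and 0.56 in COLO-320DM. So did 7 of the 9 genes from squalene to cholesterol (medians 0.68 in 320-IWR and 0.36 in COLO-320DM). The other two were EBP and DHCR7, in which replicate 1 was above replicate 2 in 320-IWR and below it in COLO-320DM. Of the regulators, 4 of 5 had replicate 1 above replicate 2 in both lines, with SCAP the reverse. All 3 genes of elongation and desaturation had it as well, with smaller medians of 0.47 in 320-IWR and 0.24 in COLO-320DM. In 4 genes, SCAP, FASN, GPAM and ACSL6, replicate 2 was above replicate 1 in both lines, against 32.5% of all genes. It was so by at least 1.25-fold in both lines in FASN and GPAM (6.19% of all genes).

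For 19 of the 33 genes the difference between the lines was smaller than both differences between replicates, against 44.3% of all genes. INSIG1, ACAT2, HMGCS1 and FDPS were among the 19, and DHCR7, FADS2, AACS, ACSS2 and ACSL6 were not.

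Several probe sets were available for 21 of the 33 genes, and 0 of the 77 probe sets passed the test. In 14 of the 21 genes, all probe sets had the same sign of the difference between the lines, and in the other 7 (ACACA, EBP, ELOVL6, FASN, MVK, SC5D and SCD) they did not. For ACACA the brightest probe set was at -0.17 and the other at 0.32 on the log2 scale. The 2 DHCR7 probe sets were at 0.65 and 0.57, and all 4 SQLE probe sets lay between -0.63 and -0.37. The 2 FADS2 probe sets were at 0.79 and 0.30, the second on a dim probe set (50.4 and 33.3 in 320-IWR, 30.9 and 35.8 in COLO-320DM, which overlapped). For ACSL6, the 5 probe sets ran from 0.00 to 2.36, of which 3 were above 1, all 3 higher on 320-IWR replicate 2 than on 320-IWR replicate 1. The highest of them had 49.9 and 160 in 320-IWR, against 15.5 and 19.6 in COLO-320DM (limma adjusted p = 0.261).

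The difference between replicates was more common on the probe sets that represent the genes than on the rest. Of the 44 other probe sets of these genes, 19 were higher on replicate 1 in both lines and 13 were lower. These counts were close to the shares over all genes on their brightest probe sets, 39.4% higher and 32.5% lower. The count for the 33 genes thus depends on the probe set. All 3 INSIG1 and both HMGCS1 probe sets had it, by at least 1.66-fold in each line for INSIG1 and 1.51-fold for HMGCS1. EBP went against it on the next 2 probe sets in brightness, with replicate 1 at 0.873-fold and 0.715-fold of replicate 2 in 320-IWR and at 0.853-fold and 0.694-fold in COLO-320DM. When the probe sets of a gene were averaged, 26 of the 33 genes had replicate 1 above replicate 2 in both lines (37.6% of all genes). The probe set of HSD17B7 and the brightest of IDI1 are of a type that the array's maker marks as possibly reading other transcripts. Without such probe sets and those that read several transcripts, 22 genes remained, of which 15 had the pattern (39% of all genes).

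The neighbouring lipid pathways were followed in 92 measured genes of 7 lists. In these lists 0 genes rose and 1 fell by limma, beside the 0.192% and 0.399% of all genes. The gene that fell was ELOVL7, an elongase of long fatty acids, with 118 and 114 in 320-IWR, against 285 and 266 in COLO-320DM. Its arrays did not overlap and its log2 fold change was -1.24 (SE 0.12, limma adjusted p = 0.0492). The call was lost with a trended robust prior (limma adjusted p = 0.077) and with an offset of 16 before log2 (limma adjusted p = 0.0579). It was also lost with 1 array left out, which was fixed for a 320-IWR array, where no probe set passed. The log2 fold change then stayed between -1.29 and -1.20. In the same list, 11 genes of elongation and desaturation, TECR, an enzyme of the elongation cycle, was highest with 1486 and 1593 in 320-IWR, against 955 and 1089 in COLO-320DM (log2 fold change 0.59, limma adjusted p = 0.234).

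In the list of SREBP processing and sterol-regulated degradation, 0 of 11 genes passed the test and the median log2 fold change was -0.16. MBTPS2, the membrane protease that makes the second cut in SREBPs, was lowest, with 943 and 972 in 320-IWR, against 1908 and 1915 in COLO-320DM. Its arrays stood far apart between the lines and close within them, and its log2 fold change of -0.997 missed the threshold (SE 0.11, limma adjusted p = 0.0729). UBE2G2, a ubiquitin-conjugating enzyme, was highest in the list at 0.16. In sterol uptake, storage and efflux, 0 of 16 passed. NR1H3, the oxysterol receptor LXRα, was highest with 232 and 286 in 320-IWR, against 109 and 120 in COLO-320DM (log2 fold change 1.17, limma adjusted p = 0.0962). It passed with equal upper quartiles of the arrays, a setting chosen after seeing the data (limma adjusted p = 0.0453), and over all alternatives its adjusted p ran from 0.0426 to 0.466. SOAT1, a cholesterol esterifying enzyme, was lowest at -0.15.

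The other lists likewise had no gene past the threshold, and their medians lay between 0.00 and 0.22 on the log2 scale. In the isoprenoid branch (0 of 9, median 0.22) GGPS1, geranylgeranyl diphosphate synthase, was highest at 0.73 on the log2 scale (limma adjusted p = 0.509) and PGGT1B lowest at -0.27. In glycerolipid synthesis (0 of 15, median 0.00), the enzymes that make triacylglycerol differed in sign, with DGAT2 highest at 0.91 (466 and 417 in 320-IWR, against 235 and 235 in COLO-320DM, limma adjusted p = 0.102) and DGAT1 lowest at -0.71 (limma adjusted p = 0.142). In the supply of acyl-CoA, NADPH and citrate (0 of 12, median 0.04), ACSL1 was lowest with 354 and 332 in 320-IWR, against 685 and 930 in COLO-320DM (log2 fold change -1.22, limma adjusted p = 0.120), and ACSL5 highest at 0.28. In fatty acid oxidation (0 of 18, median 0.01), HADH was lowest at -0.76 (limma adjusted p = 0.126) and ETFB highest at 0.63 (limma adjusted p = 0.174).

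In these 7 lists the differences between replicates were centred nearer 0 than in the 33 sterol and fatty acid synthesis genes. Their medians of replicate 1 minus replicate 2 lay between -0.16 and 0.14 on the log2 scale in 320-IWR and between -0.09 and 0.07 in COLO-320DM, beside 0.45 and 0.24 for the 33 genes. GGPS1, which branches from the mevalonate pathway, was among the genes higher on replicate 1, with 827 and 554 in 320-IWR, against 490 and 340 in COLO-320DM. Genes of other lists had larger differences, such as ACSL4 (0.94 in 320-IWR and 0.74 in COLO-320DM) and NPC2 (0.65 and 0.70). Others were higher on replicate 2 in both lines, such as SCARB1 (-0.88 in 320-IWR and -1.04 in COLO-320DM) and AGPAT5 (-0.64 and -0.82).

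**Figure D4:**
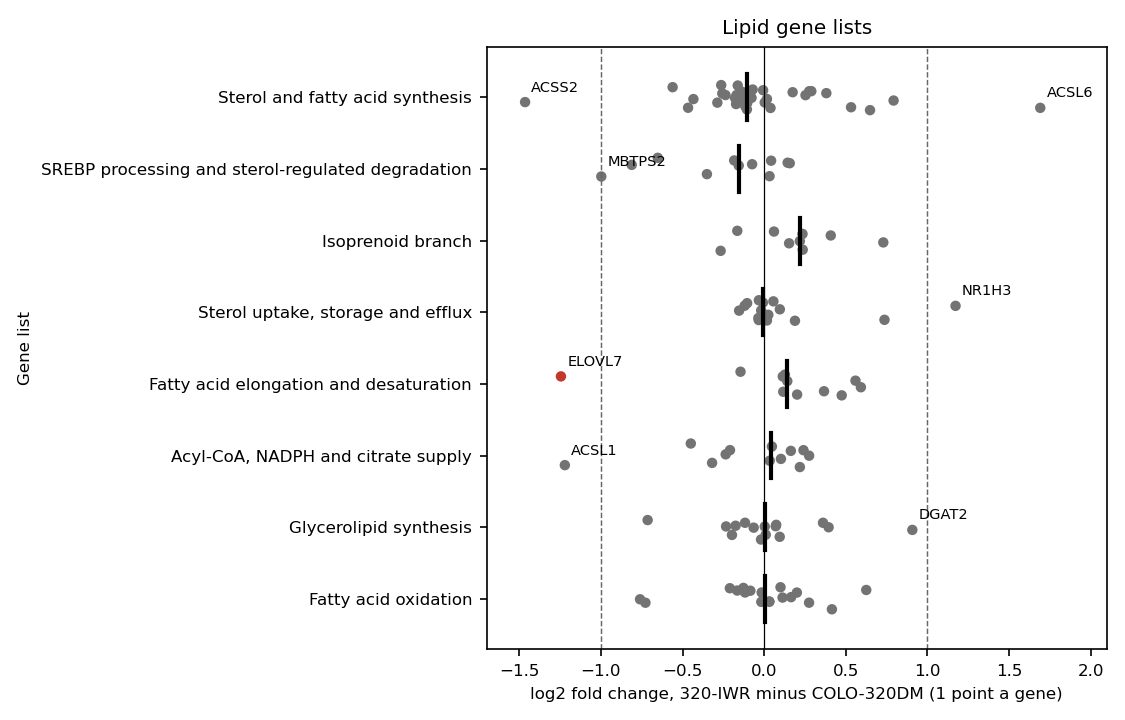
Each point is the log2 fold change of 320-IWR over COLO-320DM (horizontal axis) of 1 gene, for the 33 sterol and fatty acid synthesis genes in the top row and the 7 neighbouring lipid lists below, with list medians as black bars and 2-fold as dashed lines. The only gene that passed the test, ELOVL7, is red at -1.24, and the list medians lie between -0.16 and 0.22.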

How the data were processed

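Total RNA of 320-IWR and COLO-320DM cells was measured on 4 arrays, 2 of each line, and each array was mapped to its line by its label. The probe set intensities were deposited by the authors after normalization: the submitters' notes name RMA, without a version, and the study's methods name GeneSpring GX. The values are on a linear scale, no detection calls or scanner files were used, and precision is limited by having 4 arrays. RMA borrows strength across arrays and normalizes them to each other, which removes a shift common to most probe sets.

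Intensities were converted to log2 after a floor of 1. After removal of 62 controls from 54675 probe sets, limma 3.58.1 in R 4.3.3 (lmFit and eBayes, cell line as the only term) was run on 54613. Calls needed at least 2-fold and, over all probe sets, an adjusted p (Benjamini-Hochberg) under 0.05. The prior had 2.78 degrees of freedom. The annotation gave 1 symbol to 41091 probe sets, several to 1801 and none to 11721, and the brightest probe set with 1 symbol represented a gene. The fit was tested on simulated data.

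The members and the lists were chosen with earlier results of these data known. Given in full are members with a called probe set, the 5 highest and 5 lowest member genes without overlap between the lines, the 5 regulators, and HMGCS1, SQLE, ACLY, ACACA, FASN and SCD. Other lipid genes are named if called or as highest and lowest of their list. MVD, TM7SF2, ELOVL6, GPAM, IDI1, FDPS and ACAT2, the probe sets singled out and GGPS1 on single arrays were chosen after their values were seen. So were ACSL4, NPC2, SCARB1 and AGPAT5 for their differences between replicates. Promoter windows, 250 bases before and 50 after each start, came from RefSeq on GRCh38.p14, and only the 250 bases were searched, on both strands, with Python 3.11.

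The alternatives were a replicate block, leaving out each of the arrays, cyclic loess, medians made equal, removal of dim probe sets (kept at a mean log2 of at least 6 in a line), a trended robust prior, an offset of 16 before log2, averaged probe sets per gene, removal of the _x_at and _s_at types, an adjusted p under 0.01 and no fold limit. Equal upper quartiles (also run for the other lipid genes) and a filter at a mean log2 value of at least 9, and all alternatives for the count of genes higher on replicate 1, were chosen after seeing the data.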

Additional observations from a re-analysis of the deposited data

How the results depend on the processing

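No member gene was called under any alternative run. With a 320-IWR array left out this was fixed, since 0 of all probe sets were called. For the 19 genes given in full, the replicate block, the trended robust prior and the dim filter leave fold changes as they are by construction. Under the other alternatives the direction was kept in 118 comparisons and reversed in 15. Leaving out 1 array leaves the lines unequal in replicate number, so those fold changes also hold the difference between replicates. Leaving out 1 array at a time gave ranges of -0.55 to 0.40 for HMGCS1, -0.37 to 0.10 for SCD, -0.14 to 0.22 for SREBF1, -0.20 to 0.061 for SCAP, -0.45 to 0.96 for INSIG1, -0.15 to 0.16 for ACLY and -0.32 to 0.30 for FASN, all log2 fold changes, and ACLY was at -0.029 with cyclic loess. Over all probe sets, 61 were called higher and 141 lower. These counts were 0 to 19 and 0 to 44 with 1 array left out, 34 and 77 with an offset of 16, and 14 and 29 at an adjusted p under 0.01. The ELOVL7 call, 1 lower gene among the other lipid genes, was lost with the trended robust prior, with the offset of 16 and at an adjusted p under 0.01. It was also lost with any array left out, which was fixed in advance for a 320-IWR array. With equal upper quartiles NR1H3 was also called (1 higher).

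With 1 array left out, member genes without overlap between the lines numbered 6 to 12 higher and 7 to 20 lower. Fewer arrays make overlap rarer, and over all genes the shares were then 35% to 40.4% higher and 28.4% to 36.1% lower. Without the _x_at and _s_at types, 3 of 22 member genes were higher without overlap, against 20.3% of all genes. The median log2 fold change of the member genes ran from -0.29 to 0.15 with 1 array left out and from -0.14 to -0.05 under the other alternatives. The count of member genes higher on replicate 1 in both lines was 27 of 33 in the main setting. It was 28 with cyclic loess, 24 with equal medians, 26 with the mean of all probe sets, and 15 of 22 without the _x_at and _s_at types. It was 28 with equal upper quartiles, which moved the median of replicate 1 minus replicate 2 over all genes to 0.13 in 320-IWR and 0.08 in COLO-320DM (0.55 and 0.30 for the members), and 18 of 20 among probe sets with a mean log2 value of at least 9.

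The replicate numbers are shared between the lines, but the labels do not say that they mark a batch, and 2 pairs are too few to settle it. The differences between replicates correlated between the lines with r = 0.661 over all probe sets and r = 0.794 over the 33 member genes (across features, which are not independent). With the replicate block, 182 probe sets were called higher and 394 lower, the other lipid genes had 1 call higher (NR1H3), and 12 of 33 member genes had an unadjusted p under 0.05 (23.7% of all genes), against 5 without the block (12.3% of all genes). Still 0 member genes were called, the lowest adjusted p-values being 0.0691 for ACSS2, 0.0740 for FADS2, 0.0775 for AACS and 0.0876 for ACSL6.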
